A study of Rattus norvegicus with 11 samples.

Results

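Cerebellar cortex tissue of rats homozygous for a truncating mutation of CSB was compared with that of rats heterozygous for it, by RNA sequencing of 5 of the 11 libraries in the series. The homozygous group held replicates 1 to 3 of the genotype CSBR571X/R571X. The heterozygous group held replicates 1 and 2, titled CSB+/- and labelled CSBR571X/-, so the second allele is written only as a minus sign. All 5 libraries are labelled as Sprague-Dawly (SD) rats 10 weeks old, every one of them carries at least 1 R571X allele, and no wild-type library was scaled with them. These libraries were chosen by their titles, and because their deposited values share 1 normalization. They list 24436 features, of which 15862 had a mean of at least 5 normalized reads over the 5 libraries and were tested. The lowest mean kept was 5.00 and the highest left out was 4.999. Of 9859 named protein-coding genes listed, 6602 reached that level, and they are described here. The labels name neither the animal nor the sex behind a library, so the p-values speak only to the spread among these 5 samples, part of which may be technical.

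A normalized read is the number of reads on a gene divided by a size factor of its library, so that 1 read counted for between 0.721 and 1.24 normalized reads. The libraries held 8723823, 6028086 and 7458681 reads on listed features in homozygous replicates 1 to 3, against 5406669 and 5999484 in heterozygous replicates 1 and 2. Assembled features without a gene name took 28.7% to 31.1% of them. Pairs of libraries within a group differed beyond sampling noise (chi-square of 22.6 to 27.9 for each degree of freedom). The median SD of a named protein-coding gene within a group was 0.347 on the log2 scale among homozygous libraries and 0.284 among heterozygous libraries. Eif2s3y, a Y-linked gene, had 1, 941 and 1123 reads in the homozygous libraries, against 0 and 669 in the heterozygous libraries, so both groups mix libraries with and without its reads. The tissue label could be checked only in part. Of 16 genes known from cerebellar granule cells, 5 are listed, and 1 of these, Neurod1, reached the mean of 5, while the other 11 are not analysed here. Of 19 known from Purkinje cells, Pcp4 and Calb1, which other brain regions also express, were the 2 that reached it. Grm4, a receptor of granule cells, had at most 2 reads in any library, but Rbfox3, which most neurons express, had at most 5, so a low value here need not mean low expression. Neurod6, known from neurons of the cortex and hippocampus, held 467, 979 and 579 normalized reads in the homozygous libraries, against 698 and 331 in the heterozygous libraries, so forebrain transcripts were present in each library.

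CSB, encoded by Ercc6, is a chromatin remodeller of the SWI2/SNF2 family that starts transcription-coupled nucleotide excision repair where RNA polymerase II stalls on damaged DNA. Its loss causes Cockayne syndrome, a disorder of growth and of the nervous system in which the cerebellum and the white matter are affected. Endothelial cells line the vessels of the brain, and together with pericytes, a basement membrane and the endfeet of astrocytes they form the barrier between blood and neural tissue.

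The 4 named protein-coding genes with the smallest p, Podxl, Nos3, Vwa1 and Thsd1, were lower in the homozygous libraries. Their promoters are shown because of that rank only. The sequences run from 250 bases before to 50 bases after the annotated start of each gene and come from RefSeq on build GRCr8, while gene positions elsewhere in the text are those of the files, on rn6. Capitals mark AGGAAG on either strand (CTTCCT on the other), a form of the motif bound by ETS family transcription factors, the only motif searched, with no overlap between matches.
Podxl (chr4:61149082-61149381, minus strand): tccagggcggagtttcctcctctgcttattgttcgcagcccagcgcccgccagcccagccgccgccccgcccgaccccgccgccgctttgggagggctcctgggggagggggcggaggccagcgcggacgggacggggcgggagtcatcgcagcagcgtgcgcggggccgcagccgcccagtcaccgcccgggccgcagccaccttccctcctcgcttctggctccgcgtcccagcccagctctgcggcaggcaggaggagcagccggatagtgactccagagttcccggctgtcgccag
Nos3 (chr4:11706532-11706831, minus strand): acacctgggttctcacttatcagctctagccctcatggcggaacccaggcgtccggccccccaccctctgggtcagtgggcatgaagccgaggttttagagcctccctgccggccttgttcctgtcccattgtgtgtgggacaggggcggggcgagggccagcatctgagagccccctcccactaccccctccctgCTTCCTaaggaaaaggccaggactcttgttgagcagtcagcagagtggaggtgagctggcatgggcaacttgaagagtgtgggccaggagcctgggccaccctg
Vwa1 (chr5:171664831-171665130, minus strand): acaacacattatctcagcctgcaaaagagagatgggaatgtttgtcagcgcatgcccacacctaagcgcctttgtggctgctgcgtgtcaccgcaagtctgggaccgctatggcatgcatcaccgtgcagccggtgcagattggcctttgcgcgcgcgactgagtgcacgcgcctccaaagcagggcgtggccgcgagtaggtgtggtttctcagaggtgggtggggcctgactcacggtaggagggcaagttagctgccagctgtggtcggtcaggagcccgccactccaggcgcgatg
Thsd1 (chr16:76503902-76504201, minus strand): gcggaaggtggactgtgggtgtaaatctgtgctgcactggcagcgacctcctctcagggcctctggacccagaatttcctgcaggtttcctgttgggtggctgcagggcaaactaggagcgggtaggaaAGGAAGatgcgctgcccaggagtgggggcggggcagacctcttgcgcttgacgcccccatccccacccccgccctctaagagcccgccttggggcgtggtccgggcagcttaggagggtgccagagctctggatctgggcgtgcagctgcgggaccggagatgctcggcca
The motif stood in the promoters of Nos3 and Thsd1 and not in these windows of Podxl and Vwa1. Of the 15 lower genes described next, 11 had a promoter in the table and 5 of these held the motif (45.5%). Of the 15 higher genes it was 4 of 14 (28.6%), and over all 33469 promoters of the same length the share was 34.5%.

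Ercc6 (chromosome 16, 8734035 to 8804610, plus strand, rn6) was read in all 5 libraries and was lower in the homozygous ones. It held 157, 158 and 153 normalized reads in the homozygous libraries, against 228 and 178 in the heterozygous libraries. The homozygous libraries lay close together, at 156 ± 2.61 (SD, n = 3), and below both heterozygous ones, at 203 ± 35.2 (SD, n = 2). The difference missed the threshold in the test across all features (log2 difference -0.37, SE 0.25, limma adjusted p = 0.522).

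No feature passed an adjusted p of 0.05 in limma, the main test (0 of 15862, 0.0%), and the smallest adjusted p was 0.0739. At an unadjusted p under 0.05, 1040 features were higher (6.56%) and 1171 lower (7.38%) in the homozygous libraries. With 3 libraries against 2, an exact two-sided rank test of a single gene cannot give a p under 0.2. Run on the recovered reads, edgeR called 8 features, all lower (0.0504%), while DESeq2, which adjusted over 9093 features, called 178 higher (1.96%) and 252 lower (2.77%), and limma-voom called 0. The groups did not overlap for 2557 features in the higher direction (16.1%) and 2655 in the lower (16.7%). Among the 6602 named protein-coding genes these shares were 17.8% and 17.7%. Of them, 494 were higher (7.48%) and 565 lower (8.56%) at an unadjusted p under 0.05, DESeq2 called 90 higher (2.15%) and 141 lower (3.36%) of the 4195 it tested, and edgeR called 5, all lower (0.0757%). A positive difference was found for 51.6% of all features and 52.7% of named protein-coding genes. The median log2 difference was 0.03 over named protein-coding genes and 0.02 over all features. Scaled instead to reads on features with an Ensembl identifier, the median of all features moved to 0.19 and the split at an unadjusted p under 0.05 to 1737 higher and 653 lower, so directions near 0 depend on the scaling. Every gene described below therefore missed the threshold of the main test. Where it passed in another tool, that tool is named with its adjusted p.

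The genes with the smallest p lower in the homozygous libraries included several genes known from endothelium. Genes of this kind were taken only from those whose groups did not overlap. Podxl (chromosome 4, 58829060 to 58893170, minus strand), a sialomucin of the luminal surface of vessels, held 1098, 966 and 912 normalized reads in the homozygous libraries, against 3073 and 3918 in the heterozygous libraries. The 5 values fall into 2 separate ranges, with a log2 difference of -1.81 (SE 0.20, limma adjusted p = 0.0739, edgeR 0.0463, DESeq2 1.35e-10). Nos3 (chromosome 4, 7320668 to 7342410, minus strand), the nitric oxide synthase of endothelial cells, held 291, 297 and 372 normalized reads in the homozygous libraries, against 1158 and 1400.5 in the heterozygous libraries. This was the largest difference among the 4 (log2 difference -2.0, SE 0.22, limma adjusted p = 0.0739, with an edgeR adjusted p of 0.0463 and a DESeq2 one of 3.74e-11). Vwa1 (chromosome 5, 173216741 to 173222440, minus strand), a matrix protein of basement membranes, held 737, 882 and 991 normalized reads in the homozygous libraries, against 2774 and 3615 in the heterozygous libraries (log2 difference -1.87, SE 0.22, limma adjusted p = 0.0739). Thsd1 (chromosome 16, 74680621 to 74710704, minus strand), a transmembrane protein of endothelial cells, held 289, 355 and 277 normalized reads in the homozygous libraries, against 1202 and 1017 in the heterozygous libraries (log2 difference -1.85, SE 0.22, limma adjusted p = 0.0739). For both, every homozygous library was below every heterozygous one, and both passed in edgeR (adjusted p = 0.0463 and 0.0463). Psd, which activates the small GTPase Arf6, held 532, 725 and 667 normalized reads in the homozygous libraries, against 2000.4 and 2365 in the heterozygous libraries (log2 difference -1.77) and was the fifth named gene called by edgeR, with an adjusted p of 0.0485. Nos3 overlaps another feature on the opposite strand, and Psd one on each strand, so their reads cannot be assigned with certainty.

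The other 10 genes of this kind also had groups that did not overlap, which the choice of genes required, and all passed in DESeq2. Sox18, a transcription factor of vessel formation, held 188, 262 and 226 normalized reads in the homozygous libraries, against 625 and 814 in the heterozygous libraries (log2 difference -1.67, SE 0.25, limma adjusted p = 0.122). Tek, the receptor of the angiopoietins, held 318, 317 and 339.7 normalized reads in the homozygous libraries, against 777 and 1029 in the heterozygous libraries. The 3 homozygous values of Tek lay close together, and the log2 difference was -1.46 (SE 0.22, limma adjusted p = 0.122, DESeq2 3.72e-06). Fgd5, an activator of Cdc42 in endothelium, held 179.6, 169.5 and 189 normalized reads in the homozygous libraries, against 491 and 757 in the heterozygous libraries (log2 difference -1.76). Slc9a3r2, a PDZ scaffold of membrane proteins, held 304, 305 and 400.4 normalized reads in the homozygous libraries, against 908 and 1101 in the heterozygous libraries. It lies under another feature on its own strand. Card10, a scaffold of NF-kappaB signalling outside lymphocytes, held 100.3, 84.8 and 113 normalized reads in the homozygous libraries, against 278 and 419 in the heterozygous libraries. Pltp, which transfers phospholipids between lipoproteins, was the most abundant of the 15 with 2729.8, 3522 and 3107 normalized reads in the homozygous libraries, against 7101 and 7524 in the heterozygous libraries (log2 difference -1.24, SE 0.18, limma adjusted p = 0.122). Tagln2, an actin-binding protein, held 679, 644 and 689 normalized reads in the homozygous libraries, against 1531 and 2179 in the heterozygous libraries. Tubb6, a beta-tubulin, held 159, 179 and 200.2 normalized reads in the homozygous libraries, against 497 and 470.1 in the heterozygous libraries, and its reads may be shared with other beta-tubulins. Wfdc1, a protein of the WAP inhibitor family, held 429.9, 590.2 and 602 normalized reads in the homozygous libraries, against 1391 and 2035 in the heterozygous libraries, and Adgre5, the adhesion receptor CD97, held 141, 131 and 128 normalized reads in the homozygous libraries, against 339.6 and 383 in the heterozygous libraries. Adgre5 also overlaps a feature on its own strand, and Pltp overlaps one on the opposite strand. Over the 15 genes, the homozygous mean was between 0.250 (Nos3) and 0.427 (Pltp) of the heterozygous mean.

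**Figure D1:**
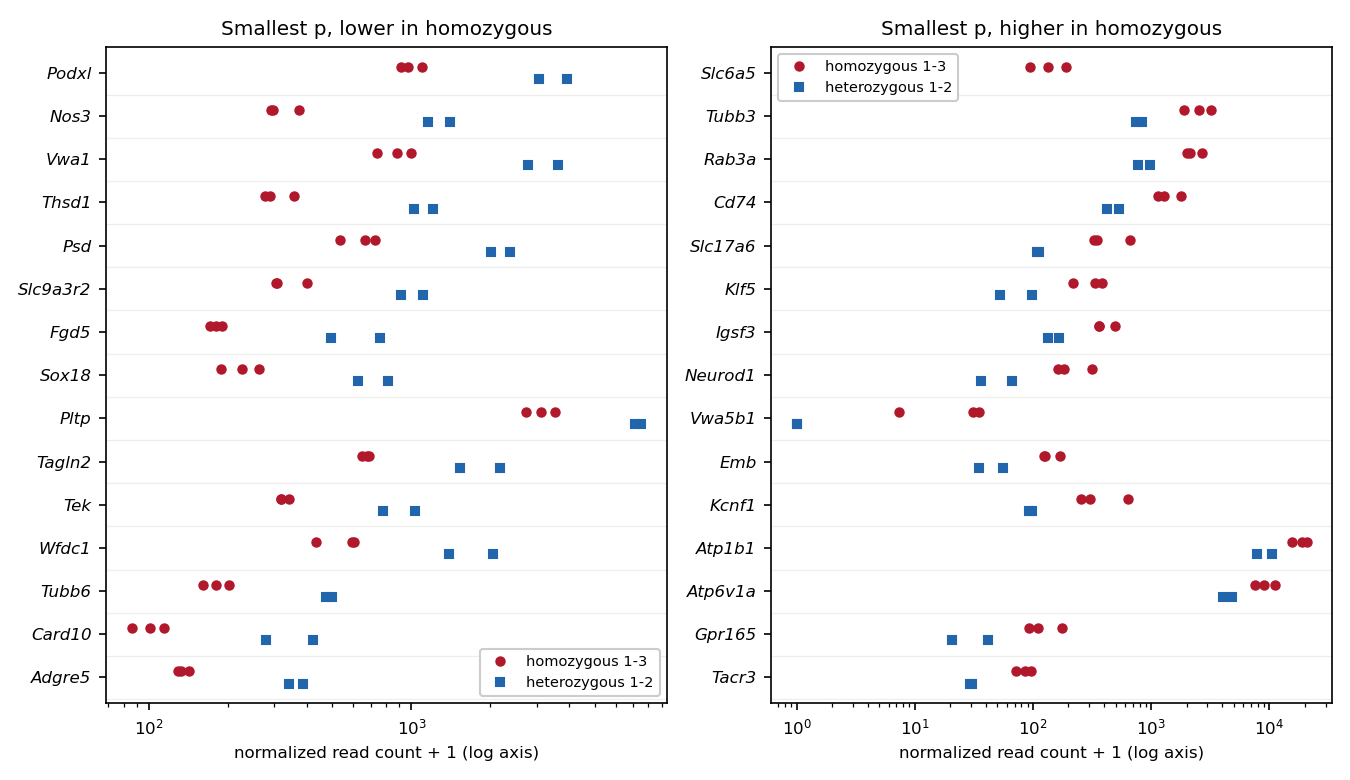
Normalized read count plus 1 (log axis) of the 15 named protein-coding genes with the smallest p in each direction, in homozygous libraries 1 to 3 (circles, upper row of each gene) and heterozygous libraries 1 and 2 (squares, lower row). The groups do not overlap for any of the 30 genes, which the choice of genes required, and Vwa5b1 was at 0 in both heterozygous libraries.

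Read as a list, endothelial genes were lower in the homozygous libraries in every member tested. Of 30 genes, 15 reached the mean of 5, all 15 had a negative log2 difference (that of 52.7% of named protein-coding genes was positive), and the median was -1.28, against 0.03 over named protein-coding genes. The groups did not overlap for 13 of the 15 in the lower direction (17.7% of named protein-coding genes), and DESeq2 called 9 of 15 (3.36%). Summed over the 19 listed members, the level was 3529.7, 4173 and 3667 normalized reads in the homozygous libraries, against 8616 and 12140.1 in the heterozygous libraries. In bulk tissue, fewer cells of a type and less RNA per cell cannot be told apart. Beside Podxl, Nos3, Sox18 and Tek, the transcription factor Sox7 held 27.4, 36.0 and 30.7 normalized reads in the homozygous libraries, against 79.3 and 136 in the heterozygous libraries (log2 difference -1.70, DESeq2 adjusted p = 0.00474). Tal1, a transcription factor of blood and endothelial precursors, held 71.4, 85.8 and 107 normalized reads in the homozygous libraries, against 217 and 208 in the heterozygous libraries (log2 difference -1.28). Flt4, a receptor of vascular endothelial growth factors, held 46.2, 68.9 and 98.0 normalized reads in the homozygous libraries, against 161 and 299 in the heterozygous libraries, and the transcription factors Mecom and Foxq1 had log2 differences of -1.22 and -1.21. All 4 passed in DESeq2, with adjusted p = 0.00735, 0.01, 0.0161 and 0.0477. Members that did not overlap and missed in DESeq2 too were Emcn (-1.05 on the log2 scale), Ets1 (-1.62), Cd93 (-1.01) and Clec14a (-0.91). The 2 members with overlapping groups were Vwf, the von Willebrand factor, with 446, 296 and 609.7 normalized reads in the homozygous libraries, against 594 and 1609 in the heterozygous libraries, and Cd34 with 278, 1043 and 221 normalized reads in the homozygous libraries, against 511 and 820.5 in the heterozygous libraries. Homozygous replicate 2 had the highest Cd34 value of the 5 libraries. The defining markers Cdh5, Pecam1, Flt1, Kdr and 7 others of the 30 are not analysed here, and Tie1, Esam, Sox17 and Egfl7 were under the mean of 5.

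The genes that build the barrier followed in part. Of the junction genes, 5 were tested and 4 had a negative difference (median -0.78). F11r, a junctional adhesion molecule, held 198, 287 and 303 normalized reads in the homozygous libraries, against 553 and 580.0 in the heterozygous libraries (log2 difference -1.13, DESeq2 adjusted p = 0.00964), and Marveld2, a protein of tricellular junctions, held 38.9, 63.6 and 35.7 normalized reads in the homozygous libraries, against 89.2 and 85.5 in the heterozygous libraries. Neither Jam3 nor Cgn, 2 further junction proteins, stood apart. Jam3 held 504, 997 and 505 normalized reads in the homozygous libraries, against 528 and 701 in the heterozygous libraries, and Cgn held 42.6, 44.5 and 43.2 normalized reads in the homozygous libraries, against 47.1 and 41.5 in the heterozygous libraries, so their groups overlap. Of 8 barrier transporters tested, 6 had a negative difference (median -0.59). DESeq2 called 3 of the 6 it tested, all lower (3.36% of named protein-coding genes). Slc2a1, the glucose transporter GLUT1 of brain endothelium, held 3367, 5911 and 5606 normalized reads in the homozygous libraries, against 9622 and 19534 in the heterozygous libraries (log2 difference -1.51, SE 0.35, limma adjusted p = 0.197). Both heterozygous libraries were above all homozygous ones, and heterozygous replicate 2 was far above the rest. Without that library the log2 difference was -1.0. Slc7a5, which carries large neutral amino acids, held 2279.8, 2552 and 2663 normalized reads in the homozygous libraries, against 4291 and 4364 in the heterozygous libraries (log2 difference -0.80, SE 0.17, limma adjusted p = 0.188), with little spread in either group. Slco1c1, a thyroid hormone transporter, held 1239.8, 2055 and 1757 normalized reads in the homozygous libraries, against 2874 and 3519 in the heterozygous libraries (log2 difference -0.95, SE 0.25, limma adjusted p = 0.213). Slc38a5, an amino acid transporter, held 59.1, 46.6 and 49.0 normalized reads in the homozygous libraries, against 78.1 and 80.6 in the heterozygous libraries (log2 difference -0.62), while Slc3a2, the heavy chain that pairs with Slc7a5, had a positive difference (1.12) at under 50 normalized reads and lies under another feature.

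Signalling genes of vessels, mural cells and the basement membrane had medians below that of all genes. Of 19 signalling genes tested, 15 were negative (median -0.64), with 8 non-overlapping lower and 1 higher (17.7% and 17.8% of named protein-coding genes). Smad6, an inhibitor of bone morphogenetic protein signals, held 74.3, 54.0 and 72.3 normalized reads in the homozygous libraries, against 201 and 293 in the heterozygous libraries (log2 difference -1.86, SE 0.30, limma adjusted p = 0.146), and passed in DESeq2 (adjusted p = 3.06e-05). Apcdd1, a Wnt inhibitor, held 615, 493 and 597 normalized reads in the homozygous libraries, against 974 and 1107 in the heterozygous libraries (log2 difference -0.88). Notch4, a Notch receptor of endothelium, held 110.3, 103 and 202 normalized reads in the homozygous libraries, against 270.2 and 587 in the heterozygous libraries (log2 difference -1.59, or -1.03 without heterozygous replicate 2), and Apln, the ligand apelin, held 534, 860.4 and 861 normalized reads in the homozygous libraries, against 939 and 2193 in the heterozygous libraries. Efnb2, the ligand ephrin-B2, which neurons also express, went the other way with 1887, 995 and 1159.6 normalized reads in the homozygous libraries, against 604 and 656 in the heterozygous libraries (log2 difference 1.04, DESeq2 adjusted p = 0.0329). Of 13 pericyte and smooth muscle genes tested, 12 were negative (median -0.75), and 4 were lower without overlap (17.7% of named protein-coding genes). Rgs5, a regulator of G-protein signalling in pericytes, held 682, 857 and 823 normalized reads in the homozygous libraries, against 1219.6 and 2272 in the heterozygous libraries (log2 difference -1.09, or -0.64 without heterozygous replicate 2, DESeq2 adjusted p = 0.0181), and Higd1b, a small protein enriched in pericytes, held 53.4, 90.1 and 68.9 normalized reads in the homozygous libraries, against 147 and 164 in the heterozygous libraries. Acta2, smooth muscle actin, held 414, 161 and 179 normalized reads in the homozygous libraries, against 464 and 494 in the heterozygous libraries, with homozygous replicate 1 close to the heterozygous values. The list sum was 2338, 2089.6 and 2254 in the homozygous libraries, against 2988 and 4356 in the heterozygous libraries. Among 9 basement membrane genes, 6 were negative (median -0.49). Col4a1, a chain of collagen IV, held 618, 745 and 689 normalized reads in the homozygous libraries, against 1438 and 2303 in the heterozygous libraries (log2 difference -1.41, SE 0.24, limma adjusted p = 0.157), Lama5, a laminin chain, had a log2 difference of -1.47, and Itgb1, an integrin chain that binds laminin, one of -0.74, and all 3 passed in DESeq2 (adjusted p = 0.000145, 0.00348 and 0.0455).

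**Figure D2:**
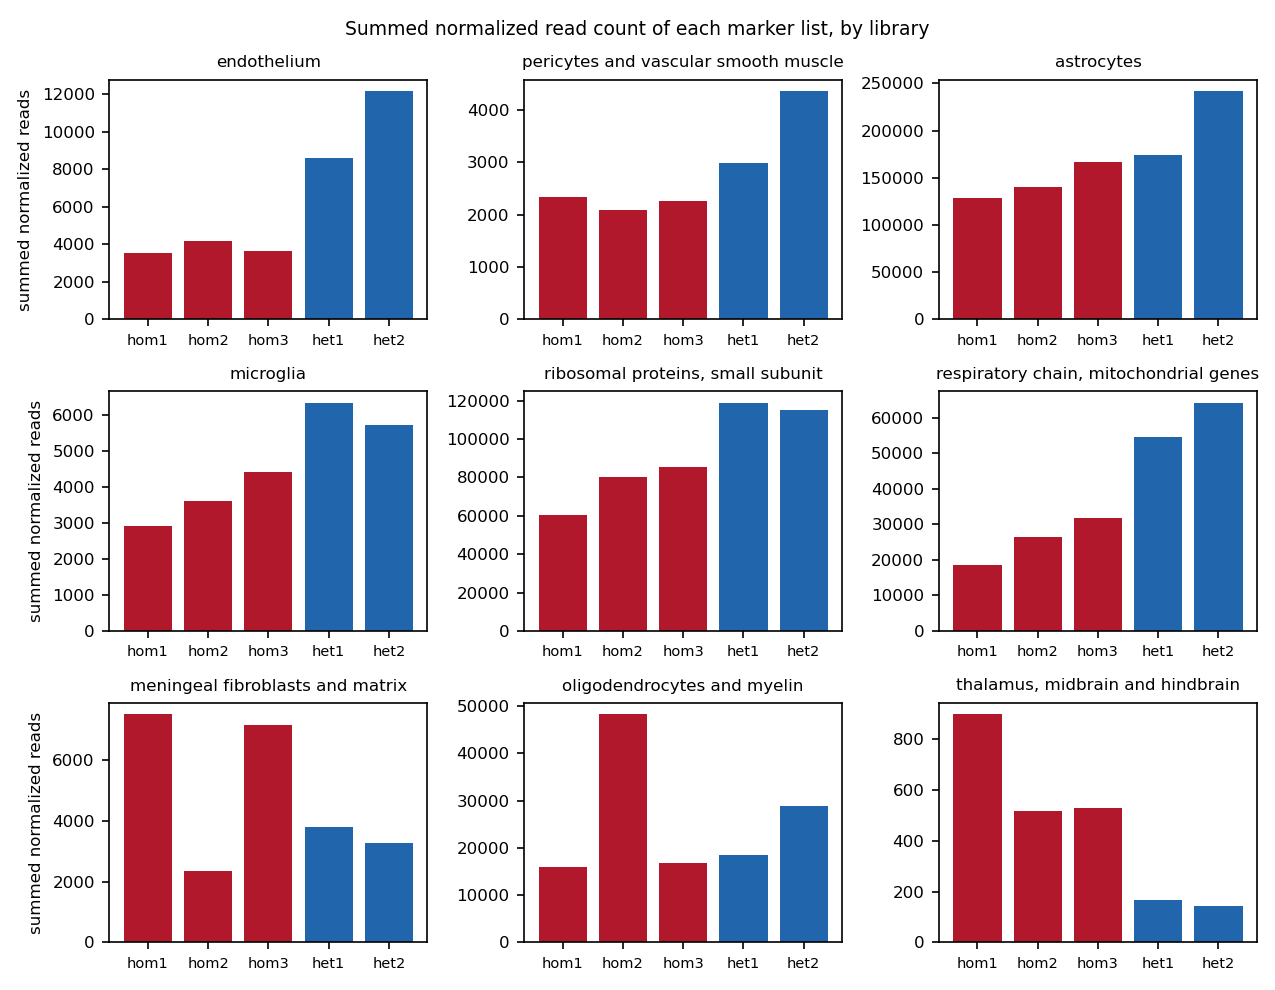
Summed normalized reads of the listed members of 9 gene lists in each library, homozygous libraries 1 to 3 on the left of each panel and heterozygous libraries 1 and 2 on the right. The sums of the endothelial, mural, astrocyte, microglial, ribosomal and mitochondrial lists are lower in all homozygous libraries, that of the thalamus, midbrain and hindbrain list is higher in all of them, and those of the meningeal and myelin lists overlap between the groups.

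Other non-neuronal cell types did not share one pattern. Of 15 astrocyte genes tested, 11 had a negative difference (median -0.32). The groups did not overlap for 4 of them in the lower direction and 2 in the higher (17.7% and 17.8% of named protein-coding genes). DESeq2 called 4 of the 12 it tested, all lower (3.36% of named protein-coding genes). These were Aldoc, a glycolytic enzyme of astrocytes (-0.86 on the log2 scale), the calcium-binding protein S100b (-1.12), Acsbg1, which activates long-chain fatty acids (-0.93), and glutamine synthetase, Glul (-0.95, or -0.58 without heterozygous replicate 2). Gfap, the filament protein that marks reactive astrocytes, went the other way, with 20102, 19747 and 26114 normalized reads in the homozygous libraries, against 16089 and 11856 in the heterozygous libraries (log2 difference 0.66, SE 0.21, limma adjusted p = 0.267). Aqp4 was also higher without overlap, at 8448, 6466 and 8554 in the homozygous libraries, against 5228 and 6029 in the heterozygous libraries. The astrocyte sum was 128199, 140151 and 167214 in the homozygous libraries, against 174031 and 241546 in the heterozygous libraries. Glul was the largest member of this sum in every library. Of 7 microglial genes tested, 6 were negative (median -0.69). P2ry13, a purine receptor of microglia, held 31.7, 28.6 and 41.5 normalized reads in the homozygous libraries, against 80.6 and 91.6 in the heterozygous libraries and passed in DESeq2 (adjusted p = 0.0377), although it lies among other features. C1qb, a chain of complement C1q, held 1225, 1259 and 1832 normalized reads in the homozygous libraries, against 2801 and 2355 in the heterozygous libraries. The microglial sum was 2907, 3619.7 and 4421 in the homozygous libraries, against 6335 and 5709 in the heterozygous libraries. The markers Cx3cr1, P2ry12 and Itgam are not analysed here.

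Myelin and meningeal genes differed within the homozygous group. The sum of 14 oligodendrocyte genes was 15868, 48214 and 16776 in the homozygous libraries, against 18471 and 28898 in the heterozygous libraries, so homozygous replicate 2 stood apart. Cldn11, the claudin of myelin, held 3165, 10562 and 3154 normalized reads in the homozygous libraries, against 2599 and 3844 in the heterozygous libraries, and Mobp, a myelin protein, held 884, 3299.7 and 975 normalized reads in the homozygous libraries, against 1838 and 2963 in the heterozygous libraries. The list median was 0.02, and no member passed in any of the 3 tools. Olig1, a transcription factor of the oligodendrocyte lineage, held 3147, 6425 and 5069 normalized reads in the homozygous libraries, against 7411 and 9476 in the heterozygous libraries (log2 difference -0.84). Meningeal fibroblast genes had a sum of 7500.1, 2350.3 and 7138 in the homozygous libraries, against 3784 and 3262 in the heterozygous libraries. Igf2, a growth factor of meninges and choroid plexus, held 821, 103 and 759 normalized reads in the homozygous libraries, against 189.6 and 105 in the heterozygous libraries, and Slc22a6, an organic anion transporter of meninges, held 349.8, 25.4 and 283 normalized reads in the homozygous libraries, against 57.0 and 22.0 in the heterozygous libraries. For the sum and both genes, homozygous replicates 1 and 3 were above the other 3 libraries. Homozygous replicate 2 was below both heterozygous libraries in the sum and in Igf2, and between them in Slc22a6. The endothelial list did not follow this split, since its 3 homozygous sums were all below the heterozygous ones. Blood cell genes were low throughout, with list sums of 174, 184 and 216 in the homozygous libraries, against 207 and 418 in the heterozygous libraries.

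Genes of high level that were lower in the homozygous libraries included a motor protein and transcripts of the mitochondrial genome. Kif5a, a kinesin heavy chain of axonal transport, held 36622, 61349.6 and 54617 normalized reads in the homozygous libraries, against 81639.5 and 234906 in the heterozygous libraries (log2 difference -1.48, SE 0.42, limma adjusted p = 0.231). Heterozygous replicate 2 held the highest value by far, and without it the log2 difference was -0.72. Sipa1, which inactivates Rap GTPases, held 616, 608 and 959 normalized reads in the homozygous libraries, against 1600.1 and 1972 in the heterozygous libraries (log2 difference -1.32, DESeq2 adjusted p = 0.00259). Mt-nd5, a subunit of respiratory complex I, held 3057, 5294 and 5444 normalized reads in the homozygous libraries, against 11569 and 12991 in the heterozygous libraries (log2 difference -1.46, SE 0.27, limma adjusted p = 0.169), and the neighbouring Mt-nd4l and Mt-nd4, of the same complex, had log2 differences of -1.22 and -1.13. All 3 passed in DESeq2 (adjusted p = 0.0011, 0.00326 and 0.0297). The mitochondrial genes overlap other features on both strands. Of 5 mitochondrial genes tested, 4 did not overlap in the lower direction (17.7% of named protein-coding genes), and the list sum was 18426, 26572 and 31760.2 in the homozygous libraries, against 54579 and 64221 in the heterozygous libraries. Nuclear genes of the respiratory chain were closer, with 27 of 35 negative, 13 non-overlapping lower (17.7% of named protein-coding genes), none higher, and a median of -0.23. Cox8a, of complex IV, held 5839.8, 7598 and 7023 normalized reads in the homozygous libraries, against 9965 and 9963 in the heterozygous libraries (log2 difference -0.56), Sdhc, of complex II, had a difference of -0.59, and Atp5d, of the ATP synthase, one of -0.46, and DESeq2 called none of the list.

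Ribosomal protein genes were lower in the homozygous libraries in both subunits. Of 23 large-subunit genes tested, 19 were negative and 16 were lower without overlap (17.7% of named protein-coding genes, median -0.54), and of 18 small-subunit genes 16 were negative and 13 were lower without overlap (median -0.51). Rps29, a small-subunit protein, held 6374, 9282 and 8369 normalized reads in the homozygous libraries, against 15189 and 15928 in the heterozygous libraries (log2 difference -0.98, SE 0.20, limma adjusted p = 0.188). Rpl37, of the large subunit, held 822, 1049 and 1053 normalized reads in the homozygous libraries, against 1876 and 1929 in the heterozygous libraries (log2 difference -0.97, SE 0.20, limma adjusted p = 0.185), and Rpl35 and Rpl21 had log2 differences of -0.95 and -0.85. DESeq2 called 3 of 19 large-subunit and 4 of 15 small-subunit genes that it tested, all lower (3.36% of named protein-coding genes). Among them were Rps28 (adjusted p = 0.023), Rps27 (0.0423) and Rpsa (0.0469). Homozygous replicate 1 was the lowest library in both sums, and the small-subunit sums were 60195, 80144 and 85269 in the homozygous libraries, against 118781 and 115102 in the heterozygous libraries. Ribosomal protein genes have many near-identical pseudogenes, with which their reads may be shared.

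The genes with the smallest p higher in the homozygous libraries included several known from neurons. Slc6a5, the glycine transporter GlyT2 of glycinergic neurons, held 189.7, 94.3 and 132 normalized reads in the homozygous libraries, against 17.4 and 6.10 in the heterozygous libraries (log2 difference 3.56, SE 0.49, limma adjusted p = 0.122). The group means were 139 ± 48.0 (SD, n = 3) and 11.7 ± 7.95 (SD, n = 2), an 11.8-fold ratio, the largest of the 15 among genes read in both groups. Tubb3, the beta-tubulin of neurons, held 3233, 1890.4 and 2562 normalized reads in the homozygous libraries, against 830.4 and 742 in the heterozygous libraries (log2 difference 1.67, SE 0.25, limma adjusted p = 0.122). Rab3a, a GTPase of synaptic vesicles, held 2704, 2146 and 2022 normalized reads in the homozygous libraries, against 982 and 779 in the heterozygous libraries (log2 difference 1.38, SE 0.21, limma adjusted p = 0.139). For all 3, every homozygous library was above both heterozygous ones, which the choice of genes required. Slc17a6, the vesicular glutamate transporter VGLUT2 of thalamic, midbrain and hindbrain neurons, held 665, 325 and 345 normalized reads in the homozygous libraries, against 107 and 111 in the heterozygous libraries (log2 difference 1.94, DESeq2 adjusted p = 9.94e-05). Neurod1, a transcription factor of neuronal differentiation, held 317, 161 and 184 normalized reads in the homozygous libraries, against 65.7 and 35.4 in the heterozygous libraries, the transcription factor Klf5 held 384, 337 and 219 normalized reads in the homozygous libraries, against 97.9 and 51.3 in the heterozygous libraries, and Kcnf1, a potassium channel subunit, held 636, 303 and 255 normalized reads in the homozygous libraries, against 97.9 and 91.6 in the heterozygous libraries. Cd74, the invariant chain of MHC class II molecules, held 1800.2, 1278 and 1145 normalized reads in the homozygous libraries, against 530.5 and 422 in the heterozygous libraries (log2 difference 1.54, SE 0.25, limma adjusted p = 0.146). It was the one gene of antigen presentation among the 15.

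The other genes of this kind have several known roles. Atp1b1, the beta subunit of the sodium pump, held 20686, 18792 and 15631 normalized reads in the homozygous libraries, against 10535 and 7887 in the heterozygous libraries (log2 difference 1.00, SE 0.20, limma adjusted p = 0.185), and Atp6v1a, the catalytic subunit of the vesicular proton pump, held 11159, 9014 and 7535 normalized reads in the homozygous libraries, against 4859.8 and 4035 in the heterozygous libraries (log2 difference 1.04, SE 0.21, limma adjusted p = 0.185). Igsf3, an immunoglobulin superfamily membrane protein, held 489.7, 359 and 360.5 normalized reads in the homozygous libraries, against 133 and 165 in the heterozygous libraries. Emb, a partner of monocarboxylate transporters, held 169, 125 and 124 normalized reads in the homozygous libraries, against 54.5 and 34.2 in the heterozygous libraries. Gpr165, an orphan receptor, held 175, 109 and 92.2 normalized reads in the homozygous libraries, against 40.9 and 19.5 in the heterozygous libraries. Tacr3, the receptor of neurokinin B, held 95.9, 84.8 and 71.4 normalized reads in the homozygous libraries, against 29.7 and 28.1 in the heterozygous libraries. Vwa5b1 held 30.3, 6.36 and 34.1 normalized reads in the homozygous libraries and none in either heterozygous library. DESeq2 called 14 of the 15 and gave Vwa5b1 no adjusted p, and edgeR and limma-voom called none of them. Neurod1, Kcnf1 and Vwa5b1 share their strand with an overlapping feature, and Rab3a, Emb and Atp1b1 face one on the opposite strand. Among genes with a mean of at least 1000, the largest positive differences beside these belonged to Kcnd3, a potassium channel (log2 difference 1.43), the membrane protein Fam171b (1.33), Wfs1, the endoplasmic reticulum protein wolframin (1.27), Tmem35, a chaperone of nicotinic receptors (1.22), the opioid peptide precursor Penk (1.18), the adhesion molecule Cadm3 (1.14) and the calcium-binding protein Necab1 (1.10). Wfs1 held 9053, 5234 and 5125 normalized reads in the homozygous libraries, against 4587 and 1448 in the heterozygous libraries, with heterozygous replicate 2 far below the rest, and without that library its difference was 0.44. Without the same library that of Tmem35 was 0.53.

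Among lists of neuronal genes with at least 4 tested members, the highest medians were those of the thalamus, midbrain and hindbrain, of voltage-gated channels, of GABA and glycine receptors and of GABA and glycine neurons, in that order. Of 6 thalamus, midbrain and hindbrain genes tested, 5 were positive (median 1.11). Their list sum was 897, 516 and 529.9 in the homozygous libraries, against 169 and 142 in the heterozygous libraries. The groups did not overlap for 3 of the 6, all higher (17.8% of named protein-coding genes). Slc17a6 and Slc6a5, already named by their p, made up most of each sum and moved with the group. Th held 13.7, 75.2 and 18.3 normalized reads in the homozygous libraries, against 32.2 and 4.88 in the heterozygous libraries, so its groups overlapped. Pitx3 had a log2 difference of -0.66. The part of these regional markers in the other neuronal results was not tested. Of 9 genes of GABA and glycine neurons, 7 were positive (median 0.76). Gad2, an enzyme of GABA synthesis, held 3454, 2059 and 1689 normalized reads in the homozygous libraries, against 1402 and 984 in the heterozygous libraries (log2 difference 0.96, SE 0.32, limma adjusted p = 0.275), and the transcription factors Dlx2 and Dlx5 of forebrain interneurons had log2 differences of 1.03 and 0.76. Of 10 GABA and glycine receptor genes, 9 were positive (median 0.85).

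Channel and striatal genes were split. Kcnd3 held 2425, 1044 and 1243 normalized reads in the homozygous libraries, against 700.3 and 422 in the heterozygous libraries and Kcna4, another potassium channel, held 519, 393 and 276 normalized reads in the homozygous libraries, against 213 and 81.8 in the heterozygous libraries (DESeq2 adjusted p = 0.0171 and 0.0465), while Hcn2, a channel of pacemaker current, held 1687, 2694 and 1886 normalized reads in the homozygous libraries, against 2796 and 5405 in the heterozygous libraries (log2 difference -0.93). Heterozygous replicate 2 was the highest library for Hcn2 and the lowest for Kcna4, and without it their differences were -0.45 and 0.84. Over 8 channel genes the median was 1.09, or 0.49 without heterozygous replicate 1, with 4 non-overlapping higher and 1 lower (17.8% and 17.7% of named protein-coding genes). Drd1, the D1 dopamine receptor, held 244, 73.1 and 102 normalized reads in the homozygous libraries, against 52.1 and 23.2 in the heterozygous libraries, and Gpr6, a receptor of indirect-pathway striatal neurons, held 49.0, 77.4 and 44.0 normalized reads in the homozygous libraries, against 21.1 and 6.10 in the heterozygous libraries, and both passed in DESeq2 (adjusted p = 0.0446 and 0.0353). The difference of Gpr6 was 2.16, or 1.35 without heterozygous replicate 2. Ppp1r1b, the dopamine-regulated phosphatase inhibitor DARPP-32 of the same region, held 6997, 5100.0 and 6035 normalized reads in the homozygous libraries, against 7147 and 9076 in the heterozygous libraries (log2 difference -0.43), and Rasd2, a striatal GTPase, held 3121, 5199 and 2755 normalized reads in the homozygous libraries, against 4197 and 15648 in the heterozygous libraries, highest in heterozygous replicate 2. Snap25, of vesicle fusion, held 99.5, 41.3 and 58.1 normalized reads in the homozygous libraries, against 12.4 and 14.7 in the heterozygous libraries under another feature on its strand (DESeq2 adjusted p = 0.008). Slc17a7, the vesicular glutamate transporter of cortical and granule neurons, held 29085, 22984 and 25405 normalized reads in the homozygous libraries, against 21561 and 17683 in the heterozygous libraries (log2 difference 0.40). Neuronal genes thus had no common direction.

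**Figure D3:**
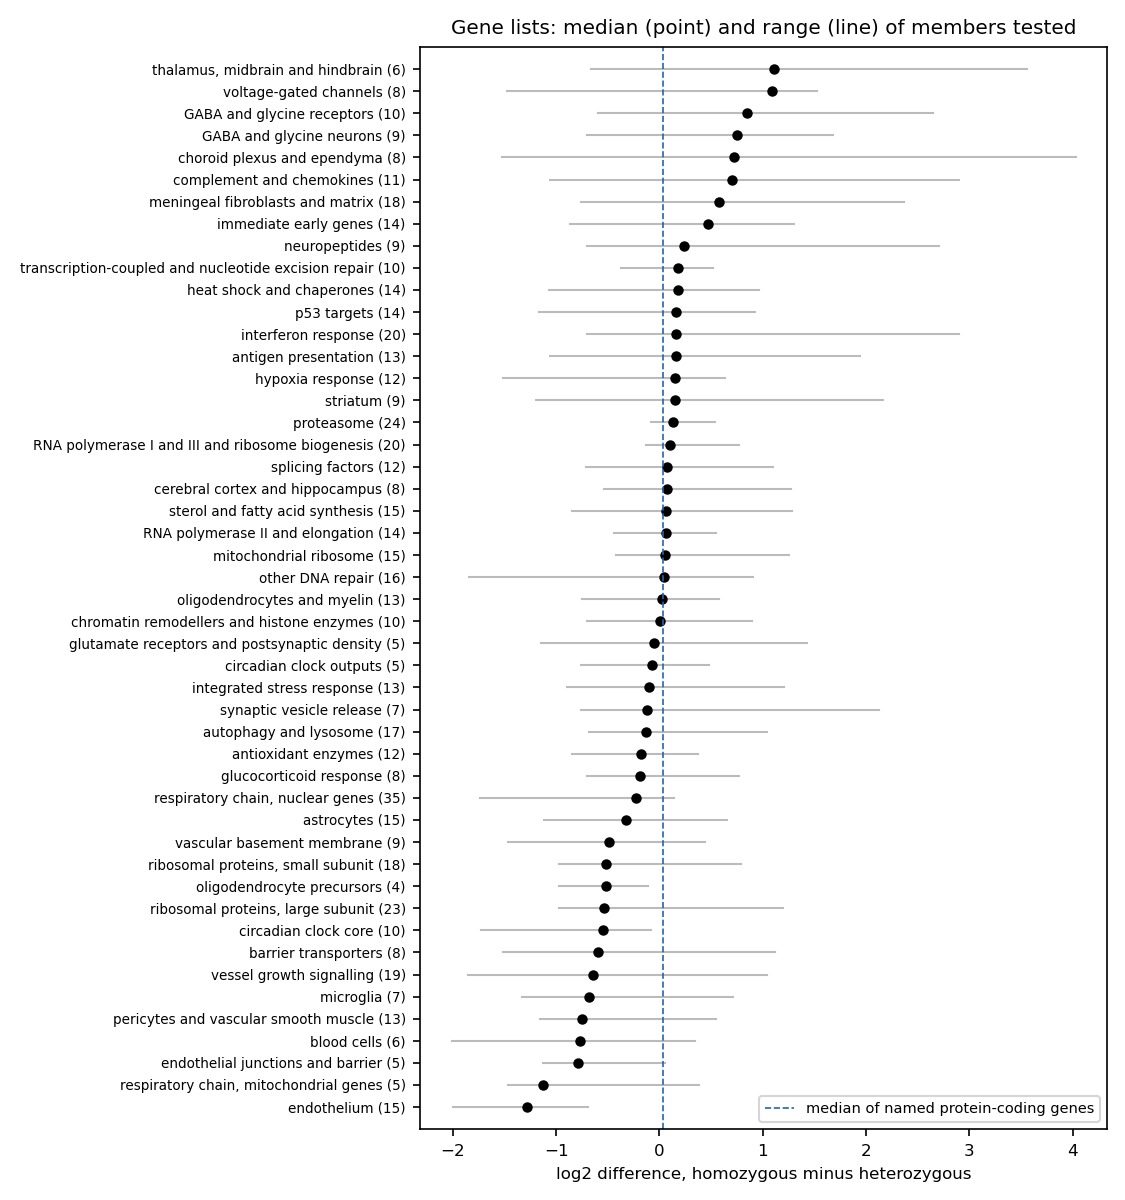
Median (point) and range (line) of the log2 difference, homozygous minus heterozygous, over the tested members of each gene list with at least 4 of them, the number in parentheses. The dashed line is the median of named protein-coding genes, 0.03, and the medians run from -1.28 for endothelium to 1.11 for thalamus, midbrain and hindbrain.

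Clock and activity genes differed in direction. All 10 core clock genes tested had a negative difference (median -0.55), 5 without overlap (17.7% of named protein-coding genes). Cry2, a repressor in the clock, held 689, 1019 and 877 normalized reads in the homozygous libraries, against 1363 and 1249 in the heterozygous libraries (log2 difference -0.62), and DESeq2 called none of the list. Time of day at collection is not stated in the labels. Of 14 immediate early genes, which neuronal activity and handling induce, 10 were positive (median 0.47). Jun, a subunit of the AP-1 factor, held 3354, 2477 and 3151 normalized reads in the homozygous libraries, against 1949.6 and 1287 in the heterozygous libraries (log2 difference 0.91, SE 0.24, limma adjusted p = 0.218) and was the one member that passed in DESeq2 (adjusted p = 0.0488). Egr2, a zinc finger factor, held 288, 352 and 239 normalized reads in the homozygous libraries, against 121 and 195 in the heterozygous libraries, and Junb, another AP-1 subunit, held 1819, 2432 and 1954 normalized reads in the homozygous libraries, against 1293 and 1453 in the heterozygous libraries.

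Genes of protein turnover and folding differed little. Of 24 proteasome genes, 20 were positive, 8 without overlap (17.8% of named protein-coding genes), but the median was only 0.13, and DESeq2 called none. Psmd6, a regulatory subunit, held 1750.4, 1649.8 and 1432 normalized reads in the homozygous libraries, against 1199 and 1018 in the heterozygous libraries and Psma1, a core subunit, held 1229.7, 1184 and 981 normalized reads in the homozygous libraries, against 822 and 734 in the heterozygous libraries (log2 differences 0.54 and 0.54). Among chaperones, the small heat shock protein gene Hspb1 held 358, 229.9 and 328 normalized reads in the homozygous libraries, against 585 and 684 in the heterozygous libraries (DESeq2 adjusted p = 0.0158), while Dnajb1, a partner of the Hsp70 chaperone, held 1917, 1585 and 1448 normalized reads in the homozygous libraries, against 1025 and 1052 in the heterozygous libraries (log2 difference 0.66). A list of autophagy and lysosomal genes had a median of -0.13, or 0.04 with the Ensembl scaling. Within it Atp6v1b2, a subunit of the vesicular proton pump, held 8004, 5743 and 5358 normalized reads in the homozygous libraries, against 3654 and 2759 in the heterozygous libraries (log2 difference 0.98, DESeq2 adjusted p = 0.0205), and Atp6v0d1, another subunit, had a difference of 0.40 and passed in no tool.

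Immune genes had no common direction. Among 13 antigen presentation genes, 4 were higher and 3 lower without overlap (17.8% and 17.7% of named protein-coding genes). Beside Cd74, the class II chain gene RT1-Db1 held 249, 141 and 153 normalized reads in the homozygous libraries, against 73.1 and 45.2 in the heterozygous libraries (log2 difference 1.59, SE 0.36, limma adjusted p = 0.197), with a DESeq2 adjusted p of 0.00848, and RT1-Bb held 105, 23.3 and 66.5 normalized reads in the homozygous libraries, against 21.1 and 8.55 in the heterozygous libraries. RT1-DMb, of the class II loading complex, and RT1-A1, of class I, had differences of -1.06 and -0.96. Genes of this region have near-identical copies, so their reads are uncertain. Cxcl10, an interferon-induced chemokine, held 37.5, 19.1 and 83.1 normalized reads in the homozygous libraries, against 7.44 and 2.44 in the heterozygous libraries (log2 difference 2.90, SE 0.69), and Rsad2, an antiviral enzyme, held 144, 118 and 287 normalized reads in the homozygous libraries, against 73.1 and 94.0 in the heterozygous libraries, but over 20 interferon response genes the median was 0.16. C1r, a protease of the complement system, held 470.2, 211 and 447 normalized reads in the homozygous libraries, against 155 and 156 in the heterozygous libraries and passed in DESeq2 (adjusted p = 0.0404).

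Genes of the process that CSB serves stayed near the median of all genes. Of 10 transcription-coupled and nucleotide excision repair genes tested, Ercc6 included, 7 were positive (median 0.18), and no tool called one. Rad23b, a partner of the damage sensor XPC, held 5495, 4209.9 and 3865 normalized reads in the homozygous libraries, against 3137 and 3117 in the heterozygous libraries (log2 difference 0.52), Ercc3, a helicase of TFIIH, had a difference of 0.21, and Rpa1, which binds single-stranded DNA, one of -0.27. Other DNA repair genes had a median of 0.05 over 16 genes, those of RNA polymerase II and elongation 0.06 over 14, of splicing 0.07 over 12 and of chromatin enzymes 0.00 over 10. Within these, Hdac5, a histone deacetylase, held 2702, 3493 and 3695 normalized reads in the homozygous libraries, against 5276 and 5378 in the heterozygous libraries (log2 difference -0.71, SE 0.20, limma adjusted p = 0.23), and Cdk9, the kinase that releases paused polymerase, had a difference of -0.44.

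Gene length was set beside the differences because CSB acts during transcription. Named protein-coding genes were classed by the length given in the files. The 265 genes of 200 kb or more had a median log2 difference of 0.25, with 53 genes non-overlapping higher and 24 (9.06%) lower in the homozygous libraries. Among all named protein-coding genes, 17.8% were higher and 17.7% lower without overlap. The longest genes thus departed from these shares mainly in having fewer lower genes, while their share of higher genes was close to that of all genes. The 1927 genes under 10 kb had a median of -0.02, with 311 genes higher (16.1%) and 378 (19.6%) lower. The classes between had medians of 0.04 (10 to 25 kb), 0.04 (25 to 50 kb), 0.06 (50 to 100 kb) and 0.08 (100 to 200 kb). Genes share libraries and are not replicates, so these shares are a description. Many long genes are neuronal, and the part of cell type in these shares was not tested.

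The other 6 libraries of the series, homozygous replicates 4 to 6 and the 3 wild-type libraries, were scaled separately, and their levels are given as a description with no test. For 14 of the 15 genes lower in the homozygous libraries, both heterozygous libraries were above all 6 of these, and for 10 of the 15 higher genes both were below all 6. Over the 1171 named protein-coding genes with non-overlapping groups in the lower direction the share was 40.6%, and over the 1174 in the higher direction it was 30.0%. Over all 6599 named protein-coding genes listed in the 11 libraries, both were above all 6 for 8.96% and below for 6.61%. All but the last shares are of genes chosen because the same 2 heterozygous libraries stood apart, so they follow in part from that choice. Podxl held 1007, 626 and 531 in homozygous replicates 4 to 6 and 2314, 1039 and 1142 in wild type, so its levels in homozygous replicates 1 to 3 were near those of 2 of the 3 wild-type libraries. Nos3 held 373, 228 and 213 in homozygous replicates 4 to 6 and 752, 300.3 and 347 in wild type. Vwa1 held 1122, 613 and 817 in these homozygous libraries and 1321, 987 and 1005 in wild type. Thsd1 held 354, 182 and 183 in homozygous replicates 4 to 6 and 599.6, 457 and 495 in wild type, and was lower in all 6 homozygous libraries than in any wild-type or heterozygous one. Tubb3 held 2228, 1497 and 5172 in homozygous replicates 4 to 6 and 1029.6, 2797 and 1911 in wild type, and Slc6a5 held 36.2, 107 and 361 in homozygous replicates 4 to 6 and 71.1, 34.7 and 29.1 in wild type, so for both genes the heterozygous libraries were the lowest of the 11. The endothelial sum was 4641, 2831 and 2484 in homozygous replicates 4 to 6 and 7643, 4082 and 4472 in wild type. Set beside 8616 and 12140 in the heterozygous libraries, these sums place the heterozygous libraries highest of the 11. The small-subunit ribosomal sum was 119088, 115073 and 81477 in homozygous replicates 4 to 6 and 94283, 59402 and 82235 in wild type. Homozygous replicates 4 and 5 were thus near the heterozygous libraries, at 118781 and 115102, unlike homozygous replicates 1 to 3. Ercc6 held 123, 119 and 85.8 in homozygous replicates 4 to 6 and 295, 407 and 356 in wild type, so the heterozygous libraries, at 228 and 178, lay between all homozygous and all wild-type libraries for the mutated gene.

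**Figure D4:**
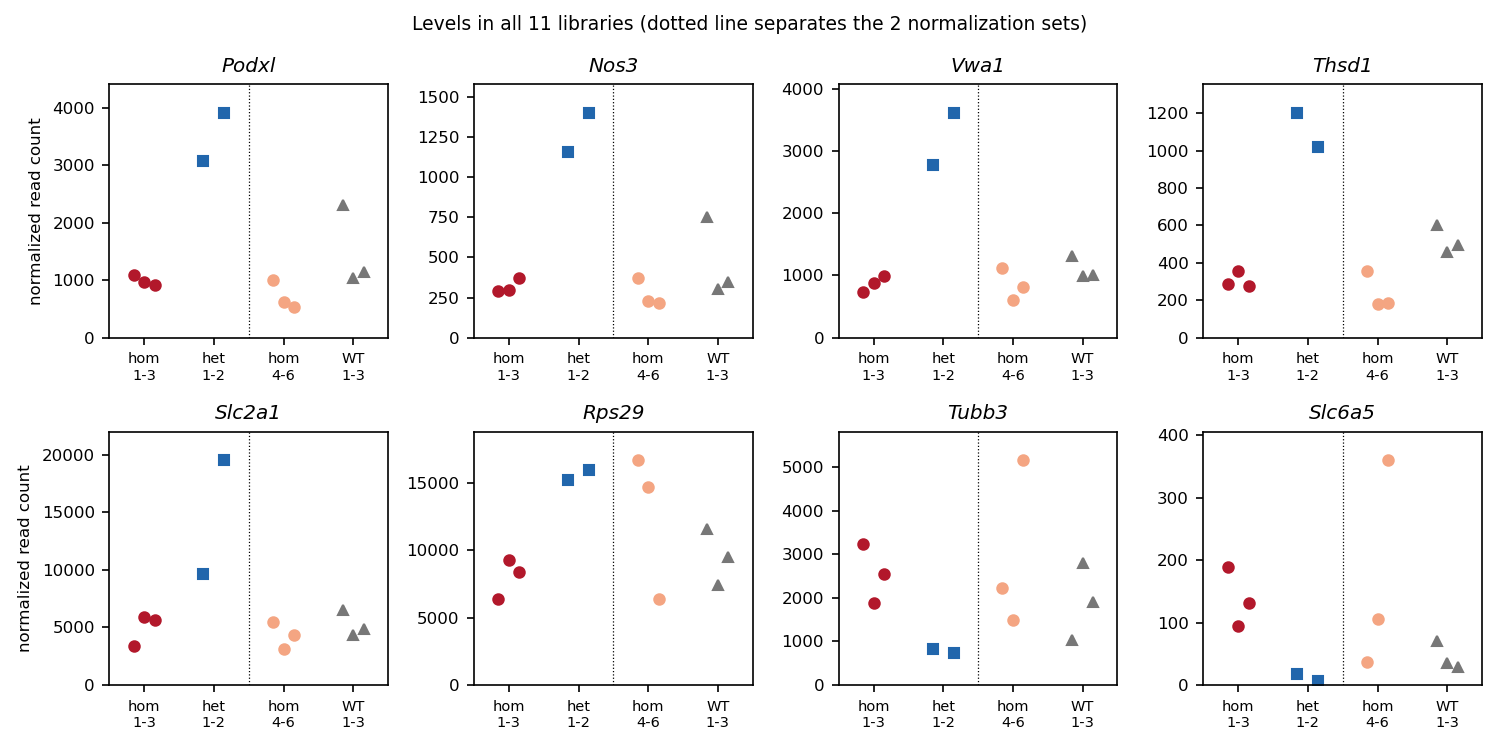
Normalized read count of 8 genes in homozygous libraries 1 to 3, heterozygous libraries 1 and 2, homozygous libraries 4 to 6 and wild-type libraries 1 to 3, each point a library. The dotted line separates the 2 separately scaled sets, and in 7 of the 8 panels, Rps29 being the exception, both heterozygous libraries lie above or below all other libraries. The genes were chosen by differences that rest on the same 2 heterozygous libraries.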

How the data were processed

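RNA was measured in 11 libraries labelled cerebellar cortex, of which 5 are compared here. Per the labels' protocols, RNA was extracted with Trizol from frozen tissue, and 1 ug of total RNA entered a TruSeq RNA library, sequenced in paired-end mode. FastQC, HISAT2 2.0.4 and build rn6 are named, per the submitters' processing notes. The sources used here do not give the read counter, the annotation or the strand setting, so reads of overlapping genes cannot be told apart. Each deposited file gives a normalized signal per feature, which the authors made by dividing reads by a size factor of the library. Multiplied back, 100% of these values came out whole (tolerance 0.001), and the recovered reads entered the count tests.

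Features listed in all 5 libraries with a mean of at least 5 were tested with limma 3.58.1 (R 4.3.3, mean-variance trend) on log2(value + 1), a scale that understates the change of low genes, with Benjamini-Hochberg adjustment over all 15862 features and a threshold of 0.05. edgeR 4.0.16 (quasi-likelihood), DESeq2 1.42.0 and limma-voom were alternatives, as were other pseudocounts (0.5 and 5), filters (means of 1 and 20, and none), scalings, the 11 libraries in 1 fit, leaving out each library, a replicate block and a term for Eif2s3y reads. The models were tested on simulated data first.

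The 51 gene lists and the groups were chosen with earlier results of these data known. Named were Ercc6, the 15 named protein-coding genes per direction with the smallest p among those whose groups did not overlap, the 10 per direction with the largest difference among those with a mean of at least 1000, and up to 5 members with the smallest p of each list described. Other members named were chosen after their values were seen. Names beginning LOC, RGD, AABR or AC0 were left out. Where a symbol had more than 1 identifier, the one with the highest mean was used.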

Additional observations from a re-analysis of the deposited data

How the results depend on the processing

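The count of 0 features past the threshold became 8 with a minimum mean of 1, 8 in edgeR, 5 with named protein-coding genes only, 430 in DESeq2, 102 with a term for Eif2s3y reads (44 higher, 58 lower) and 0 to 3 with each library left out, and stayed 0 under every other setting run but the replicate block. In the first 3 of these the named protein-coding genes were Nos3, Thsd1, Podxl, Vwa1 and Psd. With a replicate block 322 features passed (138 higher, 184 lower). That fit used only replicates 1 and 2 of each group, so homozygous replicate 3 was left out, unlike in the main test. The numbers were not shown to pair the samples, since only 2 pairs exist (r = 0.0813 and 0.158). Among the libraries of that fit, the block is the same split as the term for Eif2s3y reads.

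Non-overlapping features, 2557 higher and 2655 lower, came to 3859 higher and 1694 lower when libraries were scaled to reads on features with an Ensembl identifier, which moved the median of all features to 0.19, and to 1174 and 1171 among named protein-coding genes alone. With each library left out they ranged from 3071 to 5108 higher and from 3034 to 4977 lower, since fewer libraries overlap less often. Ercc6 kept a negative difference, from -0.55 to -0.19. Of 137 genes tried under the settings, 134 kept their direction. Jam3 was -0.0182 with the Eif2s3y term and ran from -0.27 to 0.26 with each library left out, Cgn was 0.15 with the Ensembl scaling and ran from -0.115 to 0.0630, and Cldn11 ran from -0.000620 to 0.871, the lowest without homozygous replicate 2. The endothelial median stayed between -1.66 and -1.10. The medians of 20 lists changed sign under at least 1 setting, 8 of them without heterozygous replicate 2, and the cause was not tested. With 3 libraries against 2, the spread within groups limits what can be called.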

Other observations

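Some lists outside the main groups held genes that stood apart. Of 12 antioxidant genes tested, 7 were lower and 1 higher without overlap (17.7% and 17.8% of named protein-coding genes). Prdx6, a peroxiredoxin that is high in astrocytes, held 3858, 4202 and 4358 normalized reads in the homozygous libraries, against 6984 and 7914 in the heterozygous libraries (log2 difference -0.85, SE 0.17, limma adjusted p = 0.183), and it passed in DESeq2 (adjusted p = 0.00445), while 12 antioxidant genes together had a median of -0.17, or 0.00245 when libraries were scaled to reads on features with an Ensembl identifier. Hmox1, heme oxygenase, held 113, 180.1 and 200.2 normalized reads in the homozygous libraries, against 259 and 304 in the heterozygous libraries. Scd2, the abundant fatty acid desaturase of brain, held 49509, 61484 and 79025 normalized reads in the homozygous libraries, against 94519.6 and 132918 in the heterozygous libraries (log2 difference -0.85), whereas Sqle, of cholesterol synthesis, had a difference of 0.79, and the median of 15 lipid synthesis genes was 0.06. Pmaip1, the p53 target Noxa, held 138, 234 and 165 normalized reads in the homozygous libraries, against 281 and 552 in the heterozygous libraries (log2 difference -1.17, or -0.68 without heterozygous replicate 2, DESeq2 adjusted p = 0.0494), and Sesn1, another p53 target, held 99.5, 60.4 and 70.6 normalized reads in the homozygous libraries, against 32.2 and 47.6 in the heterozygous libraries, so these members of a list with a median of 0.16 lay on opposite sides of 0. Hk2, a hexokinase, and Ldha, a lactate dehydrogenase subunit, both induced by hypoxia, had log2 differences of -0.74 and 0.63. Eif4ebp1, a translation repressor that the integrated stress response induces, held 241, 312 and 365 normalized reads in the homozygous libraries, against 512 and 617 in the heterozygous libraries (log2 difference -0.90).

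Among the 6602 named protein-coding genes, homozygous replicate 1 was the highest of the 5 libraries for 28.1% and heterozygous replicate 2 for 26.3%. Heterozygous replicate 2 was also the lowest for 25.7%.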
